A study of Homo sapiens with 80 samples.

Results

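The samples described here are 8 libraries of WTC11, a human induced pluripotent stem cell line, taken on day 6 of differentiation to cardiomyocytes, out of 80 libraries in the series. They are defined by their labels: the 4 day 6 wells of a differentiation that later gave a high share of cardiomyocytes and the 4 day 6 wells of a differentiation that later gave a low share. The comparison was picked with earlier results of these data known. In these 8 wells 19987 of the 43388 genes in the table had at least 1 TPM (a level scaled for transcript length and library size) in 3 or more wells and were compared. The question is which transcripts already separate the 2 differentiations at the cardiac progenitor stage, before the share of cardiomyocytes is scored.

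Per the labels, cells of both classes received CHIR99021, an activator of WNT signalling, on day 0, and IWP2, an inhibitor of WNT secretion, on day 2. IWP2 was withdrawn on day 4, and medium with insulin was given from day 6. The class, high or low purity, was assigned afterwards by flow cytometry of cardiac troponin T in day 16 cells; those percentages are not used here. The high purity wells came from cells at passage 52 and the low purity wells from cells at passage 69. The 4 wells of a class belong to 1 differentiation, so purity, passage and differentiation cannot be told apart. Every p-value below for the wells of these differentiations measures the spread between wells of the same differentiation. The RNA-only libraries used for comparison are total RNA libraries of 1 high and 1 low purity differentiation each of WTC11 (day 6, passages 81 and 69), IMR90-4 (induced pluripotent, day 7, passages 55 and 75) and H9 (embryonic, day 7, passages 58 and 55). IMR90-4 and H9 cells received IWP2 on day 3, in conditioned medium, and insulin from day 7. P-values across the RNA-only libraries measure the spread between lines.

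Activation of WNT signalling turns pluripotent cells into mesoderm, and its later inhibition steers that mesoderm to the heart. Cardiac progenitors express transcription factors such as NKX2-5, ISL1, GATA4, TBX5 and MEF2C and begin to make sarcomere proteins. The same mesoderm can also give endothelium and endocardium, epicardium, fibroblasts and smooth muscle, and anterior endoderm often arises beside it in such cultures.

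Reads per well, recovered from the deposited TPM, numbered 13900958, 11728018, 9752007 and 12295719 in high purity wells 1 to 4 and 8410073, 7682563, 8743290 and 7715590 in low purity wells 1 to 4. The low purity wells were shallower without overlap (two-sided exact permutation p = 0.0286, the lowest value possible with groups of 4). The mitochondrial ribosomal RNA RNR2 took 16.5% to 18.5% of the TPM in low purity wells against 11.3% to 17.1% in the others. Low purity well 4 stood apart from its class: it was the lowest low purity well for 63% of the 924 genes called higher in high purity and the highest for 58.3% of the 1360 genes called lower. Low purity well 2 lay at the other end, as the highest low purity well for 52.3% of the higher calls and the lowest for 46.6% of the lower calls. Values without low purity well 4 are given beside several results below. With the RNAs RNR1, RNR2 and RN7SK left out before scaling, 2575 genes were called, 1061 higher and 1514 lower. The part of depth in the differences below was not tested.

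All wells carried cardiac transcripts, and all 20 core cardiac transcription factors on the list passed the filter on low values. The pluripotency factor POU5F1 was at or under 0.14 TPM in every well, and TBXT, the marker of primitive streak, was at or under 0.527 TPM. Transcripts of endoderm genes were also present in every well, as given below. In bulk RNA, fewer cells of a type and less RNA per cell cannot be told apart.

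Between the classes 2284 of 19987 genes were called, 11.4% of those tested (limma; a call needed an adjusted p under 0.05 together with a log2 fold change of 1 or more in size). Of these, 924 genes (4.62%) were higher in high purity wells and 1360 (6.8%) were lower, and the median over all tested genes was -0.01. Fold changes are high minus low on the log2(TPM + 1) scale, which understates the change of genes near 1 TPM. By gene type, 698 called protein-coding genes were higher and 579 lower, while 110 called long non-coding RNAs were higher and 449 lower. For 92.2% of the calls all wells of a class lay on the same side of the other class, against 37.1% of all tested genes. The calls were made on these same wells, so a high share follows from the selection and is no check of them. Without low purity well 4 the calls numbered 2031, of which 785 were higher and 1246 lower. Of the 2281 calls with recovered reads, 257 had at most 10 reads in every well. Counts for gene lists below cover the members that passed the filter and are to be read beside the 11.4% called over all tested genes. A gene present in 1 class alone could pass through that class, so each count is a description.

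**Figure D1:**
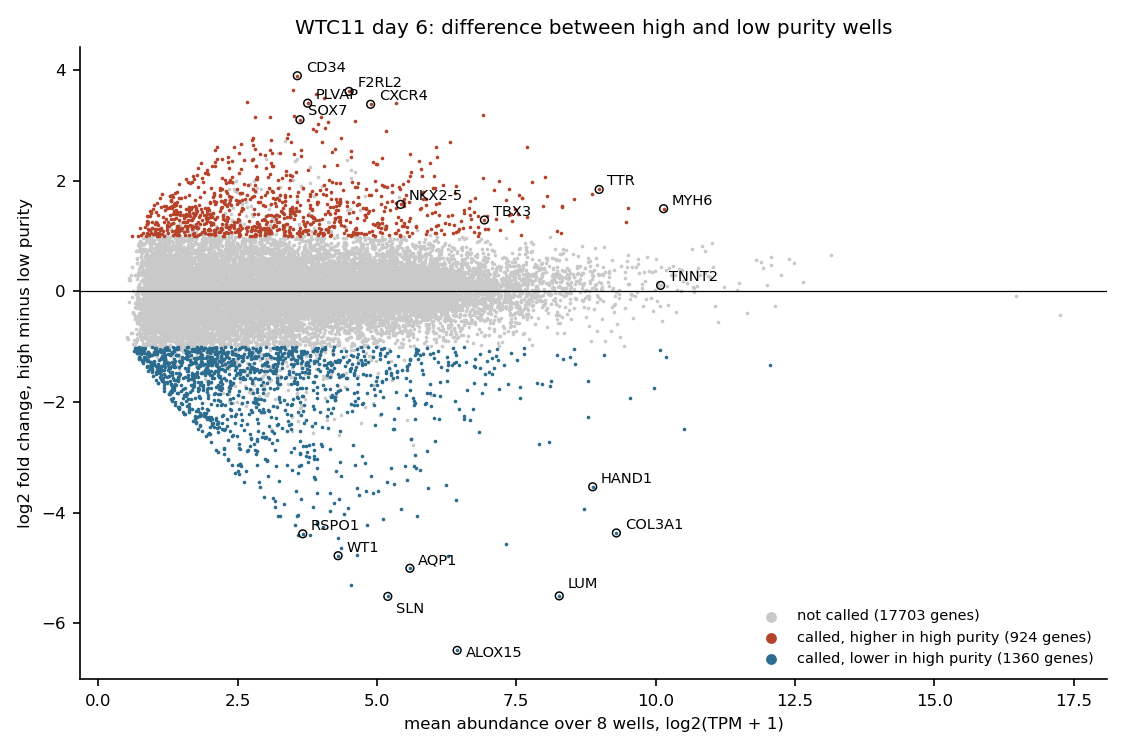
Each point is 1 of 19987 genes, with its mean abundance over the 8 wells as log2(TPM + 1) on the x axis and its log2 fold change, high minus low purity, on the y axis; coloured points are the 924 genes called higher and the 1360 called lower. The lower calls reach further from 0 (ALOX15 at -6.49) than the higher calls (CD34 at 3.90), and TNNT2 lies near 0 among the abundant genes.

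The gene with the largest increase was CD34, a surface glycoprotein of endothelial and blood progenitors, on chr1:207880972-207911125 (GRCh38.p14). It measured 18.4, 22.2, 27.2 and 17.1 TPM in high purity wells 1 to 4, against 0.413, 1.19, 0 and 0.437 TPM in low purity wells 1 to 4. No low purity well came near any high purity well, and low purity well 3 held no read. The log2 fold change was 3.90 (0.25 SE, n = 4 wells per class, adjusted p = 1.96e-05). The 12 with the largest increase were taken under naming filters that are described with the processing. They also included PLVAP, a component of endothelial diaphragms (3.40), SOX7, an endothelial transcription factor (3.11), and CXCR4, a chemokine receptor of endoderm and mesoderm (3.38). The thrombin receptor family member F2RL2 (3.62), the metalloprotease ADAMTS8 (3.17), the WNT antagonist SOST (3.16) and SMIM24 (3.15) were also among them. The remaining 4 were uncharacterised loci, LOC105377123 (3.42), LOC105370826, LOC101929316 and LOC107985958.

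The gene with the largest decrease was ALOX15, a lipoxygenase that oxidises arachidonic acid, on chr17:4630919-4641678. It measured 0.891, 1.93, 0.24 and 0.664 TPM in high purity wells 1 to 4, against 127, 126, 159 and 270.0 TPM in low purity wells 1 to 4. The classes were far apart, and low purity well 4 was the highest of all. The log2 fold change was -6.49 (0.32 SE, adjusted p = 6.71e-06). Lumican (LUM), a collagen-binding proteoglycan, had a mean of 12.3 ± 1.87 TPM (SD, n = 4) in high purity and 603 ± 172 TPM in low purity wells, a ratio of 49.1. Also among the 12 with the largest decrease under the naming filters were the water channel AQP1 (-5.01) and the desmosomal cadherin DSC3 (-4.79). The epicardial factors WT1 (-4.78) and BNC2 (-4.76) and the somite factor MEOX1 (-4.42) were there too. BNC2-AS1, annotated antisense to BNC2, measured -5.30; whether its reads were separated from those of BNC2 by strand is not given in the sources used here. Sarcolipin (SLN), the WNT agonist RSPO1, the collagen COL3A1 and the locus LOC105369687 complete that list.

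The contractile apparatus did not move as a block. TNNT2, the cardiac troponin T by which purity was scored, measured 1335, 916, 656 and 1751 TPM in the high purity class; the low purity class held 1123, 1179, 1074 and 672 TPM. The high purity wells were both the lowest and the highest of the 8, so the classes overlapped fully. The log2 fold change was 0.11 (0.30 SE, adjusted p = 0.805; two-sided exact permutation p = 0.771), and -0.07 without low purity well 4. Of 26 tested sarcomere genes, 4 were called higher and 3 lower, with a median of 0.24. ACTC1, the cardiac actin (0.39, adjusted p = 0.128), MYL7, the atrial light chain (0.23, adjusted p = 0.363), and titin TTN (-0.09, adjusted p = 0.809) missed both thresholds.

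The 2 heavy chains of cardiac myosin went in opposite directions. MYH6, the alpha heavy chain, measured 2079, 1482, 1138 and 1915 TPM across the high purity wells, while the low purity wells gave 678, 810.1, 676 and 262 TPM. MYH7, the beta heavy chain, measured 10.4, 6.23, 3.74 and 7.39 TPM in the 4 high purity wells against 39.3, 42.9, 41 and 16.5 TPM in the 4 low purity wells. For both genes the classes did not overlap, although low purity well 4 was the lowest low purity well each time. MYH6 was 2.73-fold higher in the means (log2 fold change 1.50, 0.34 SE, adjusted p = 0.00812) and MYH7 was lower (-2.19, 0.33 SE, adjusted p = 0.00121). Without low purity well 4 the MYH6 value was 1.14 and the MYH7 value -2.50. The other sarcomere genes called higher were TNNI3, the adult cardiac troponin I (1.74), and the myosin chaperone UNC45B (1.37) and the actin-binding XIRP1 (1.36, or 1.13 without low purity well 4). The others called lower were MYOZ2 (-1.19) and skeletal actin ACTA1 (-1.11).

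Of the 20 core cardiac transcription factors, 6 were called higher and 2 lower, and the median was 0.03. NKX2-5, the homeobox factor of cardiac specification, measured 72.4, 55.9, 48.4 and 72.1 TPM in high purity wells 1 to 4, against 26.2, 27.5, 25.4 and 7.71 TPM in low purity wells 1 to 4. Low purity well 4 was far below the other low purity wells, and no low purity well reached the lowest high purity well. The log2 fold change was 1.57 (0.36 SE, adjusted p = 0.00817) and 1.16 without that well. ISL1, which marks second heart field progenitors, measured 47.9, 48.8, 61.7 and 44.2 TPM against 16.5, 18.9, 14.9 and 8.71 TPM. The same order of classes held, with a log2 fold change of 1.72 (0.21 SE, adjusted p = 0.000345). MEF2C (1.57, or 1.20 without low purity well 4), the muscle histone methyltransferase SMYD1 (1.86, or 1.54 without it), TBX3 (1.29) and HEY2 (1.26) were the other 4 called higher.

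HAND1, a bHLH factor of extraembryonic and lateral mesoderm and of the left ventricle, ran the other way. It measured 69.6, 65.6, 66.7 and 97.8 TPM in the high purity class; the low purity class held 754, 744, 847 and 1093 TPM, so that even the highest high purity well was far below the lowest low purity well. Its mean was 11.5-fold lower (log2 fold change -3.53, 0.18 SE, adjusted p = 7.89e-06). ZFPM2, a cofactor of GATA4, was the other factor called lower (-2.50). GATA4 (-0.14, adjusted p = 0.156) and TBX5 (-0.07, adjusted p = 0.848) had overlapping wells. The median of this list was -0.04 without low purity well 4, on the other side of 0.

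**Figure D2:**
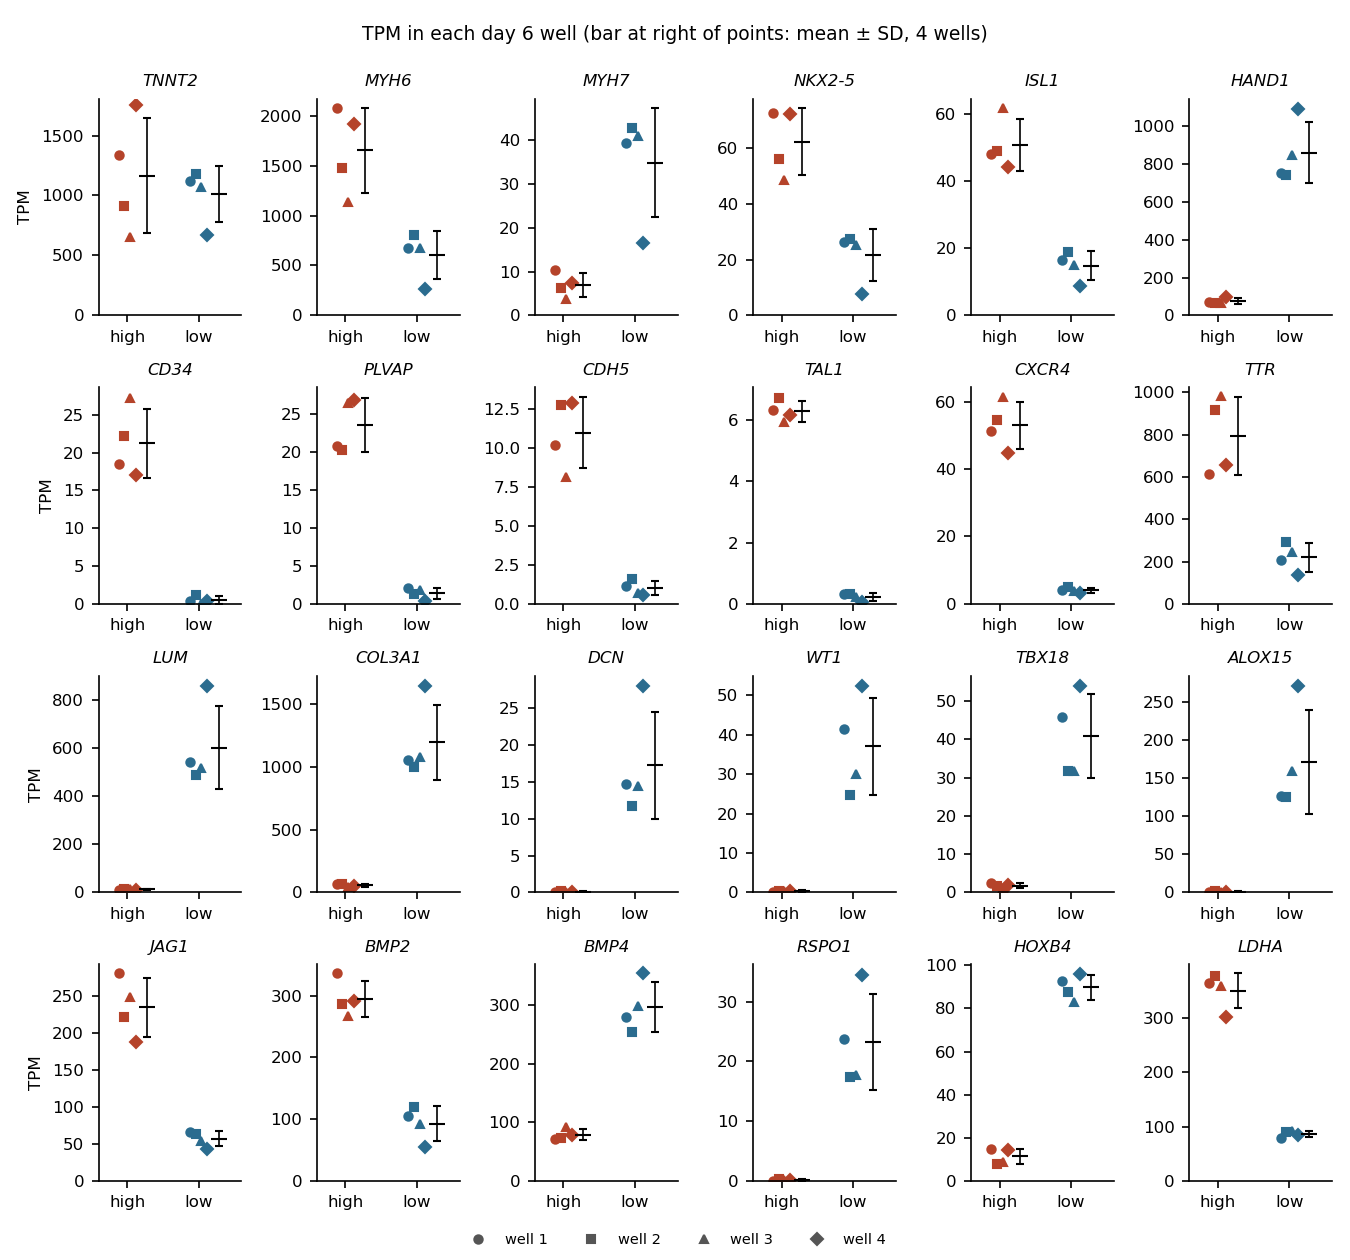
Each panel shows the TPM of 1 gene (y axis, linear from 0) in the 4 high and the 4 low purity wells of day 6, with a marker shape per well number and the mean ± SD at the right of each group; a well number does not pair wells across classes. TNNT2 overlaps between the classes, MYH6 and MYH7 separate in opposite directions, and low purity well 4 (diamond) is the lowest low purity well for NKX2-5 and the highest for LUM.

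Genes of calcium handling and excitation showed 0 members higher and 3 lower of 15 tested (median 0.24). The lower genes were SLN, an inhibitor of the calcium pump of the sarcoplasmic reticulum, its relative PLN and the calcium channel CACNA1C. SLN measured 0.332, 0.756, 0 and 1.06 TPM in high purity wells, from 0 to 3 reads each, and 58.4, 46.3, 59.4 and 119 TPM in low purity wells. The separation was complete, with a log2 fold change of -5.52 (0.33 SE, adjusted p = 1.39e-05). PLN was not fully separated: high purity well 1 at 76.7 TPM lay above low purity well 4 at 74.7 TPM, and its log2 fold change of -1.10 became -0.91 without high purity well 3, under the fold threshold. The ryanodine receptor RYR2 did not pass (-0.18, adjusted p = 0.486). Among 7 natriuretic peptide genes, the clearance receptor NPR3 (2.03) and the processing enzyme CORIN (1.19) were called higher and the receptor NPR1 (-2.20) lower. The peptides NPPA (-0.38, adjusted p = 0.591) and NPPB (-0.45, adjusted p = 0.203) were not called.

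Second heart field genes split. Of 16 tested, 4 were called higher and 5 lower (median 0.34). The growth factors FGF8 and FGF10, made by second heart field cells, were higher: FGF10 measured 131, 112, 122 and 96.1 TPM across the high purity wells, while the low purity wells gave 58.9, 56.4, 51.4 and 45 TPM. The wells did not overlap (log2 fold change 1.08, 0.091 SE, adjusted p = 6.43e-05), and FGF8 gave 1.73. EYA1 (1.56) and FOXC1 (1.12), transcription regulators of the same progenitors, were the other 2 higher. LHX2 (-3.13), the atrial-lineage receptor NR2F1 (-2.15), the semaphorin SEMA3C (-2.12) and WNT11 (-1.12) were among the lower genes.

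Genes of endothelium and endocardium gave the largest count of increases on the lists. Of 25 tested members (28 listed), 20 were called higher and 1 lower, and the median was 1.53. PLVAP measured 20.8, 20.3, 26.5 and 26.9 TPM in high purity wells 1 to 4, against 2.03, 1.28, 1.86 and 0.358 TPM in low purity wells 1 to 4. VE-cadherin (CDH5), the adhesion molecule of endothelial junctions, measured 10.2, 12.8, 8.16 and 12.9 TPM against 1.13, 1.62, 0.689 and 0.596 TPM. Neither gene overlapped between the classes, and in low purity wells CDH5 rested on 6 to 16 reads. Their log2 fold changes were 3.40 (0.26 SE, adjusted p = 4.05e-05) and 2.57 (0.21 SE, adjusted p = 6.05e-05). VWF (2.34), ERG (2.20), TIE1 (2.13) and PECAM1 (2.09) were also higher.

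Not every endothelial gene followed. KDR, the VEGF receptor that also marks early cardiac mesoderm, measured 246, 249, 251 and 205 TPM in the high purity class; the low purity class held 224, 229.9, 235 and 296 TPM. The classes overlapped, with high purity well 4 the lowest and low purity well 4 the highest (log2 fold change -0.08, adjusted p = 0.603, and 0.02 without low purity well 4). TEK, the angiopoietin receptor, was the exception in direction: its log2 fold change was -1.57 (adjusted p = 0.000147). The count of called endothelial genes was 19 without low purity well 4, 9 with a pseudocount of 5 and 11 with a filter of at least 5 TPM in 4 wells.

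Of 8 tested blood genes, 3 were called higher and 0 lower. TAL1, a factor of blood and endocardial fate, measured 6.33, 6.72, 5.92 and 6.15 TPM across the high purity wells, while the low purity wells gave 0.312, 0.338, 0.239 and 0.0552 TPM. The separation was wide for so low a transcript, with 136 to 196 reads against 1 to 6 (log2 fold change 2.55, 0.15 SE, adjusted p = 1.37e-05). Its partner LMO2 (2.08) and GATA2 (1.22) were the others, and both are also expressed in endothelium. RUNX1 did not pass the filter, with at most 0.509 TPM in a well, and the leukocyte antigen PTPRC was at or under 0.0563 TPM.

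Endoderm genes were mostly higher in the high purity wells: 12 of 18 tested (20 listed) were called higher and 2 lower, with a median of 1.59. CXCR4 measured 51.3, 54.7, 61.3 and 44.7 TPM in the 4 high purity wells against 4.15, 5.02, 3.81 and 3.34 TPM in the 4 low purity wells. TTR, transthyretin, a secreted carrier made by hepatic and yolk sac endoderm, measured 615, 919, 982 and 658 TPM against 205, 293, 244 and 136 TPM. Both separated the classes, by log2 fold changes of 3.38 (0.12 SE, adjusted p = 2.98e-06) and 1.84 (0.25 SE, adjusted p = 0.000609). The forkhead factors FOXA2 (1.64) and FOXA1 (1.79), the homeobox factor HHEX (1.84) and the lipoprotein APOB (1.80) were called higher with them. SOX17, shared with the endothelial list, was at 2.65. AFP, alpha-fetoprotein, was lower instead, with 10.6, 14.2, 11.6 and 13.4 TPM in high purity wells 1 to 4, against 70.7, 99.8, 85.9 and 76.5 TPM in low purity wells 1 to 4 (log2 fold change -2.67, adjusted p = 8.76e-06), and so was fibrinogen FGB (-1.82). Summed over the tested list, endoderm genes amounted to 2350 to 2900 TPM in the high purity wells, against 765 to 1270 TPM in the low purity wells.

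Genes of other lineages gave smaller counts, to be read beside the 11.4% called over all tested genes. Of 7 tested neuroectoderm genes 3 were called higher, among them OTX2 (1.92) and SOX2 (1.64), while the neural markers PAX6 and SOX1 were at or under 0.0882 TPM. Of 15 pluripotency genes 4 were higher, led by SOX2, LIN28A (1.25) and TDGF1 (1.11), and 3 were lower, led by PODXL (-1.75). In the primitive streak list 3 of 6 tested were higher, led by FOXH1 (1.88). Of 9 amnion and surface epithelium genes, TFAP2C (2.27) and GATA3 (1.86) were higher and HAND1 lower. Among 8 paraxial mesoderm genes 3 were higher, all at or under 19.8 TPM in the mean, and MEOX1 was lower. SNAI2 (-2.13) was the only called gene of 6 in the neural crest list with limma (edgeR and DESeq2 on recovered reads called 2), and CALD1 (-1.63) the only called gene of 13 in the smooth muscle list.

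Many genes of stroma were called lower in the high purity wells. Of 17 tested fibroblast genes (18 listed), 11 were called lower and 1 higher, THY1, a surface glycoprotein named after its value was seen (1.21), with a median of -1.39. LUM measured 11, 14.8, 12.6 and 10.7 TPM in the high purity class; the low purity class held 545, 490.1, 519 and 859 TPM. COL3A1, the fibrillar collagen of type III, measured 67.3, 67.9, 46.5 and 49.5 TPM against 1058, 1002, 1082 and 1647 TPM. In both genes low purity well 4 was well above the other low purity wells, and those in turn were far above every high purity well. The log2 fold changes were -5.51 (0.19 SE, adjusted p = 2.61e-06) and -4.37 (0.18 SE, adjusted p = 3.79e-06), and without low purity well 4 they were -5.32 and -4.20. COL6A3 (-3.56), periostin POSTN (-4.02), DDR2 (-3.20) and COL1A2 (-2.28) were lower too. COL1A1, a chain of type I collagen, lay at the edge of the fold threshold at -0.99 and was not called. The summed level of the tested list overlapped between the classes, at 8260 to 10400 TPM in high purity wells against 9830 to 10200 TPM.

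Small leucine-rich proteoglycans, which organise collagen fibrils, shared this direction in 6 of 9 tested members (11 listed), with a median of -1.57. Decorin (DCN) measured 0, 0.214, 0 and 0 TPM across the high purity wells, while the low purity wells gave 14.7, 11.7, 14.4 and 28 TPM. Reads of DCN were found in only 1 high purity well, 6 in all, against 214 to 521 per low purity well (log2 fold change -4.06, 0.26 SE, adjusted p = 1.95e-05). Fibromodulin FMOD (-4.22), PRELP (-2.33), ASPN (-1.57) and OGN (-1.33) were the other lower members, and PODN (1.11) was higher. Summed over the 9 tested members, these genes reached 26.9 to 35.5 TPM in the high purity wells, against 573 to 981 TPM in the low purity wells, most of it from LUM.

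Of 13 tested epicardial genes (15 listed), 7 were called lower and 0 higher, with a median of -1.08. WT1, the zinc finger factor of the epicardium, measured 0.193, 0.293, 0.433 and 0.479 TPM in the 4 high purity wells against 41.4, 24.7, 30 and 52.3 TPM in the 4 low purity wells. TBX18, an epicardial T-box factor, measured 2.4, 1.71, 1.14 and 1.96 TPM against 45.9, 31.9, 31.9 and 54 TPM. The high purity wells held only 3 to 7 reads of WT1 each, and neither gene overlapped between the classes. The log2 fold changes were -4.78 (0.23 SE, adjusted p = 6.71e-06) and -3.91 (0.21 SE, adjusted p = 9.36e-06). BNC1 (-3.51), BNC2, TCF21 (-2.25), ALDH1A1 (-1.52) and UPK3B (-1.08) were the others. The keratin KRT19, on the same list and named after its value was seen, was not called (0.77). Summed over the tested epicardial list, which KRT19 dominates, the level was not lower in high purity wells: 1960 to 2300 TPM against 1490 to 1760 TPM.

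**Figure D3:**
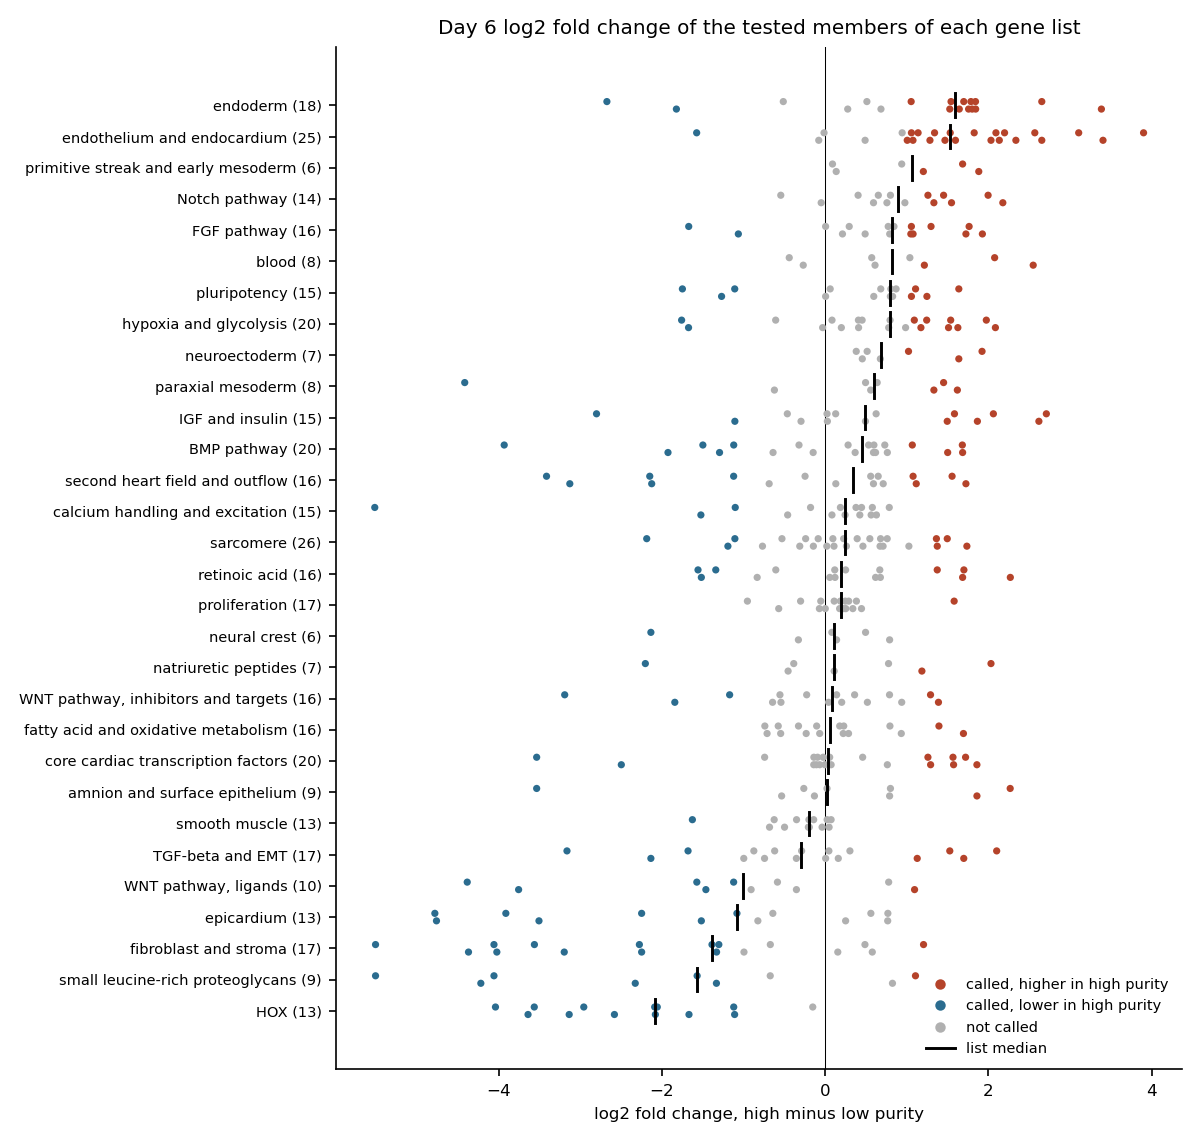
Each row is a gene list with the number of tested members in brackets, each point the day 6 log2 fold change of a member (x axis, high minus low purity), coloured where called, and each black bar the list median. The endoderm and endothelium rows lie mostly right of 0, with medians of 1.59 and 1.53, and the HOX, proteoglycan, fibroblast and epicardium rows mostly left, with medians from -2.09 to -1.08.

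HOX genes, which set position along the body axis, had the lowest median of the lists at -2.09. Of 39 genes listed, 13 passed the filter, and of these 12 were called lower and 0 higher. HOXB4 measured 14.6, 7.77, 8.55 and 14.4 TPM in high purity wells 1 to 4, against 92.9, 87.4, 82.9 and 95.9 TPM in low purity wells 1 to 4. HOXB1 measured 2.59, 2.01, 5.08 and 2.51 TPM against 39.4, 35.5, 50.4 and 54.6 TPM. All low purity wells lay high above all high purity wells in both genes (HOXB4 log2 fold change -2.96, adjusted p = 1.95e-05; HOXB1 -3.56, adjusted p = 2.3e-05). HOXB3 (-3.14), HOXB5 (-3.64) and HOXB6 (-4.04) were lower as well, and so were HOXC8 (-2.58) and HOXA2 (-1.67). HOXA13, named because it was the exception, was not called (-0.15, adjusted p = 0.433). Because genes high only in low purity wells could pass the filter through those wells, the 12 are not a share of all HOX genes.

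Of 16 tested genes of retinoic acid signalling, which induces many HOX genes, 4 were called higher and 3 lower (median 0.19). The degrading enzymes CYP26A1 (1.68) and CYP26C1 (1.70), the binding protein CRABP1 (2.27) and the receptor RARB (1.37) were higher. The synthesising enzymes RDH10 (-1.56) and ALDH1A1 (-1.52) and the receptor RXRG (-1.34) were lower. ALDH1A2, the main synthesising enzyme of the embryo, was not called (0.25, adjusted p = 0.365) at about 1 TPM in both classes.

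The list of WNT ligands and R-spondins leaned to lower levels, mostly through the R-spondins, which amplify WNT signals at the receptor. In this list 5 of 10 tested (17 listed) were called lower and WNT5B (1.10) higher, with a median of -1.01. RSPO1 measured 0, 0.265, 0.105 and 0.165 TPM in high purity wells, from 0 to 3 reads each, and 23.7, 17.3, 17.7 and 34.5 TPM in low purity wells. The classes were fully apart (log2 fold change -4.38, 0.23 SE, adjusted p = 8.76e-06). RSPO2 (-3.76), RSPO3 (-1.46) and RSPO4 (-1.57) were lower too, so all 4 R-spondins were called. WNT11 was the only WNT ligand called lower, and the other tested WNT ligands apart from WNT5B were not called. Among 16 inhibitors and targets, the target genes AXIN2 and LEF1 were lower. AXIN2 measured 10.3, 6.8, 5.71 and 8.21 TPM against 17, 16.7, 18.3 and 19.9 TPM, without overlap (log2 fold change -1.17, 0.15 SE, adjusted p = 0.000525), and LEF1 gave -1.84. Secreted WNT antagonists split: FRZB was lower (-3.19), while SFRP1 (1.39) and SFRP2 (1.29) were higher. WNT targets TCF7 (-0.23) and SP5 (0.94) were not called.

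BMP2 and BMP4, ligands that promote cardiac and extraembryonic mesoderm, differed in opposite directions. BMP2 measured 336, 286, 267 and 291 TPM in the high purity class; the low purity class held 105, 120.1, 91.7 and 54.5 TPM. BMP4 measured 71.6, 73.4, 92 and 78.2 TPM across the high purity wells, while the low purity wells gave 279.7, 255, 298 and 355 TPM. High purity wells were thus above all low purity wells for BMP2 (log2 fold change 1.68, 0.20 SE, adjusted p = 0.000335) and below all of them for BMP4 (-1.93, 0.13 SE, adjusted p = 2.54e-05). Of 20 tested genes of the pathway, 4 were called higher and 5 lower, with a median of 0.45. BMP7 (1.50, or 1.13 without low purity well 4) went with BMP2, and BMP5 (-1.29) with BMP4. Among target genes ID4 (1.68) was higher, while MSX1 was lower (-3.93). The antagonist FST (-1.12) was lower.

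Of 16 tested genes of the FGF pathway, 7 were called higher and 2 lower, with a median of 0.82. Besides the ligands FGF8 and FGF10, the receptor FGFR4 (1.93) and the feedback genes SPRY4 (1.76), DUSP6 (1.06) and ETV5 (1.30) were higher. SPRY4, an inhibitor induced by the pathway, measured 95.7, 81.9, 68.1 and 93.9 TPM in the 4 high purity wells against 27.8, 31.1, 25 and 14.2 TPM in the 4 low purity wells. FGFR2, a receptor, ran the other way with 77.5, 87.3, 80 and 66.4 TPM against 226, 214, 229 and 318 TPM. Low purity well 4 was the lowest well for SPRY4 and the highest for FGFR2, and neither gene overlapped (FGFR2 log2 fold change -1.67, adjusted p = 5.66e-05).

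Of 14 tested Notch genes, 6 were called higher and 0 lower, with a median of 0.89. JAG1, a Notch ligand, measured 280.3, 221, 248 and 187 TPM in high purity wells 1 to 4, against 66.1, 63.7, 54 and 43.5 TPM in low purity wells 1 to 4. NRARP, a feedback target of Notch, measured 14.4, 17.7, 16.3 and 14.8 TPM against 3.07, 4.43, 2.82 and 1.09 TPM. In both, every high purity well was above every low purity well, by log2 fold changes of 2.00 (0.13 SE, adjusted p = 2.09e-05) and 2.18 (0.26 SE, adjusted p = 0.00034). The targets HES4 (1.55) and HEY2 (1.26), the ligand DLL3 (1.45) and the glycosyltransferase LFNG (1.33) completed the 6. The receptor NOTCH1 was not called (-0.05). With a pseudocount of 5, 3 members were called.

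The upstream sequences of the Notch list were searched for the letters GTGGGAA, the core bound by the Notch effector RBPJ, on both strands in the 250 bases before each start of RefSeq (GRCh38.p14). Of 27305 genes with a sequence, 6.69% held the letters, and so did 4 of the 13 Notch list members with a sequence. Of the 5 such members called higher, HES4 and HEY2 held them. These are shown with the matching letters in capitals, 63 bases each around the match.
HES4 (chr1:1000140-1000202, minus strand): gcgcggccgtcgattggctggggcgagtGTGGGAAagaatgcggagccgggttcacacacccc
HEY2 (chr6:125749391-125749453, plus strand): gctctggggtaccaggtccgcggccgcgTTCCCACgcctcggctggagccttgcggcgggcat
A match describes these letters only and was not tested as a binding site. In all, 14 motif patterns were looked at in these lists before this and the hypoxia motif below were chosen.

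Of 15 tested genes of IGF and insulin signalling, 6 were called higher and 2 lower, with a median of 0.49. The binding protein IGFBP6 measured 161, 111, 156 and 123 TPM in the high purity class; the low purity class held 19.6, 25.6, 19.5 and 14.7 TPM. The growth factor IGF2, a fetal mitogen, measured 3.26, 2.55, 2.69 and 3.88 TPM against 25.2, 21.8, 25.9 and 36.3 TPM. Binding protein and ligand thus separated the classes in opposite directions (IGFBP6 log2 fold change 2.71, adjusted p = 1.37e-05; IGF2 -2.80, adjusted p = 1.96e-05). IGFBP5 (2.06), IGFBP2 (1.87) and IGFBP4 (1.50) were also higher. The imprinted neighbours DLK1 (2.62) and MEG3 (1.58) were higher, while H19, the imprinted neighbour of IGF2, was lower (-1.11). In the list for TGF-beta and epithelial to mesenchymal transition, 4 of 17 were higher and 3 lower. The epithelial adhesion genes CDH1 (1.70) and EPCAM (1.53) were higher, and the mesenchymal genes SNAI2 (-2.13) and ITGA8 (-3.16) lower.

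Of 20 tested genes of glycolysis and the response to low oxygen, 8 were called higher and 2 lower, with a median of 0.79. LDHA, lactate dehydrogenase, measured 364, 377, 359 and 303 TPM across the high purity wells, while the low purity wells gave 79.6, 90.5, 91.7 and 84.1 TPM, a ratio of 4.06 between the means. BNIP3, a mitophagy receptor, measured 476, 464, 478 and 496 TPM against 171, 173, 159 and 141 TPM. The wells of each class lay close together and the classes far apart (LDHA log2 fold change 1.98, 0.078 SE, adjusted p = 3.56e-06; BNIP3 1.54, 0.07 SE, adjusted p = 5.17e-06). ENO2 (2.09), ALDOC (1.63), the glucose transporter SLC2A3 (1.51), DDIT4 (1.24) and the angiogenic factor VEGFA (1.09) were also higher. The glucose transporter SLC2A1 was lower, with 61.1, 60.7, 54.2 and 54 TPM in the 4 high purity wells against 168, 156, 167 and 249 TPM in the 4 low purity wells (log2 fold change -1.67, adjusted p = 6.79e-05), and so was NDRG1 (-1.76). The glycolytic kinase HK2 was not called (0.41).

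The letters ACGTG, the core bound by hypoxia-inducible factors, were searched for on both strands in the same 250 bases upstream. They were present in 21.7% of the 27305 genes, in 11 of the 17 list members with a sequence, and in 5 of the 6 such members called higher. These 5 are shown with every match in capitals, in windows of up to 61 bases around the match nearest the start. Where the letters read CACGTG, matches on the 2 strands overlap, and this sequence is also the core of the E-box bound by MYC-type factors.
LDHA (chr11:18394462-18394522, plus strand): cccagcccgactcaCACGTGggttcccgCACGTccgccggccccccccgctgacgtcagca
BNIP3 (chr10:131982024-131982084, minus strand): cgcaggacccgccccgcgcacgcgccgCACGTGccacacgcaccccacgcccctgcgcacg
ENO2 (chr12:6914434-6914494, plus strand): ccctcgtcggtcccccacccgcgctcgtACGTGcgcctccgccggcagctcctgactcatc
ALDOC (chr17:28576896-28576951, minus strand): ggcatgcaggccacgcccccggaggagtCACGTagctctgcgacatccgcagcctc
DDIT4 (chr10:72273771-72273831, plus strand): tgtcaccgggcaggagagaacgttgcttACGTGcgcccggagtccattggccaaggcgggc
Factor binding at these positions was not measured.

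Of 17 tested cell cycle genes 1 was called, beside 11.4% of all tested genes. This was CCND1 (cyclin D1), with 106, 106, 95.1 and 89.1 TPM in high purity wells 1 to 4, against 33.5, 41.3, 33.1 and 21.9 TPM in low purity wells 1 to 4 (log2 fold change 1.58, adjusted p = 0.000124), and the median was 0.19. MKI67 gave -0.30 and TOP2A -0.05. Without high purity well 4 the count was 2. Of 16 genes of fatty acid and oxidative metabolism, myoglobin MB (1.69) and lipoprotein lipase LPL (1.39) were called higher and 0 lower. This count is near the share of 11.4% over all tested genes.

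The day 6 difference was compared with that of day 4 in the same 2 differentiations, over all 56 multi-omic wells. On day 4, 8.86% of the 19987 genes were called, and on day 8, 14.6%. These genes had passed the filter on day 6 wells, so genes present only on another day could not count. The same fit over all wells called 2249 genes on day 6. The difference itself changed between day 4 and day 6 in 1758 genes (8.8%), upward in 954 and downward in 804. It changed between day 6 and day 8 in 964 genes (4.82%), upward in 424 and downward in 540.

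Many genes of cardiac muscle changed their difference between day 4 and day 6. TNNT2 averaged 15.2 ± 4.63 TPM (SD, n = 4) in high purity wells on day 4, against 489 ± 27.4 TPM in low purity wells. On day 6 the means were 1165 ± 481 and 1012 ± 230.4 TPM, and on day 8 2952 ± 521 (n = 3) and 1361 ± 234 TPM. The low purity wells were thus ahead on day 4, not separated on day 6 and behind on day 8, with an interaction of 5.08 between day 4 and day 6 (adjusted p = 1.86e-14). MYH6 went from 5.99 to 1654 TPM in the high purity class and from 108 to 606 TPM in low purity wells (interaction 5.55, 0.35 SE, adjusted p = 4.36e-17). Of 26 tested sarcomere genes 21 changed in this contrast, 19 of them upward, and the list median moved from -1.48 on day 4 through 0.24 on day 6 to 1.27 on day 8. The naming filters kept only genes whose day 6 wells did not overlap, which left out TNNT2. Among the genes kept, SMYD1 (5.53), XIRP1 (5.38) and UNC45B (4.70) were in the 8 with the largest upward interaction. BRINP2 (4.51), ATOH1 (4.10) and F2RL2 (3.99) were among these 8 too.

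TTR had the largest upward interaction of the genes named by rule. It averaged 0.0531 TPM in high purity wells of day 4 against 22.3 TPM in the low purity class, and 793 and 219 TPM on day 6, so its order reversed within 2 days (interaction 6.27, 0.31 SE, adjusted p = 1.71e-20). Endothelial genes opened their difference in the same interval: 14 of 25 had an upward interaction and 1 a downward one, and the list median was 0.35 on day 4, 1.53 on day 6 and 1.74 on day 8. PLVAP, near 0 in both classes on day 4 (0.403 and 0.2 TPM), was an example (interaction 3.18). CD34 was already apart on day 4, with 12.5 ± 2.91 TPM in high purity wells against 2.63 ± 0.674 TPM in low purity wells.

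Among genes that passed the naming filters, those with the largest downward interaction were RSPO1, SHISA3, SLN, PAPPA, ALOX15, CXCL14, LOC105376241 and AQP1. RSPO1 was higher in high purity wells on day 4 (2.71 against 0.0528 TPM) and lower on day 6 (0.134 against 23.3 TPM), with an interaction of -6.01 (0.22 SE, adjusted p = 7.61e-25). SHISA3, an inhibitor of WNT and FGF receptor maturation, crossed in the same way, from 102 against 31 TPM to 2.95 against 46.2 TPM (interaction -5.33). The metalloprotease PAPPA (-5.04), which cleaves IGF binding proteins, and the chemokine CXCL14 (-4.28) also crossed. LUM and COL3A1, by contrast, were already lower in high purity wells on day 4 (log2 fold changes -4.81 and -4.61), and their interactions were -0.65 and 0.28, under the fold threshold. HOX genes too were lower on day 4, with a list median of -1.25.

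**Figure D4:**
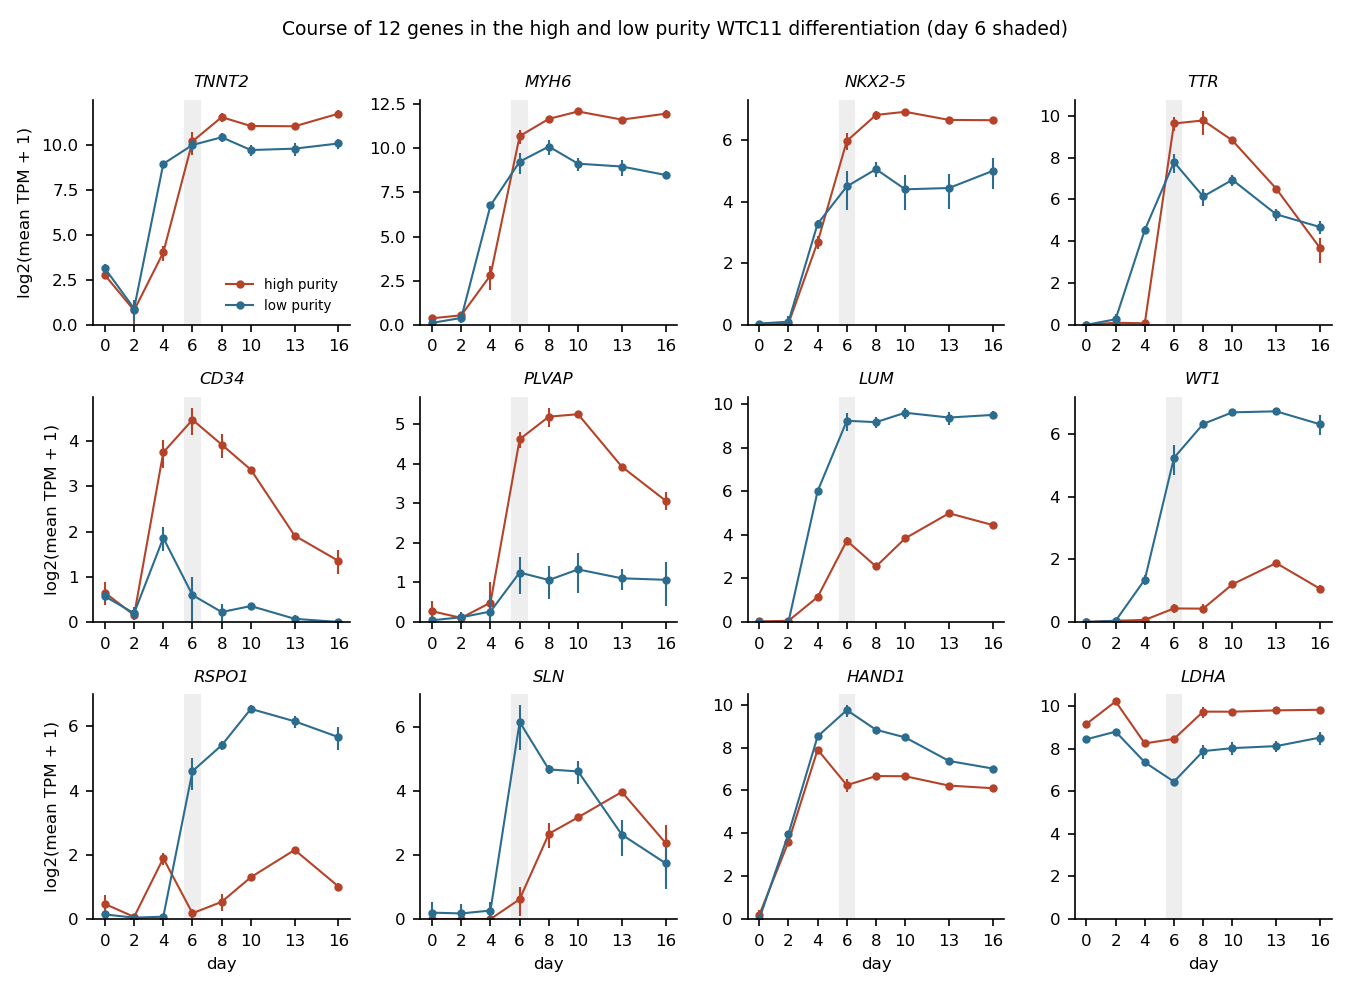
Each panel follows 1 gene over the days sampled (x axis) as log2(mean TPM + 1) (y axis) in the high and the low purity WTC11 differentiation; vertical lines span the mean ± 1 SD where a group had more than 2 wells, and day 6 is shaded. TNNT2, MYH6, TTR and RSPO1 cross between day 4 and day 6, while LUM is apart from day 4 on.

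The RNA-only libraries held 1 high and 1 low purity differentiation per line, so the difference within a line has no replicate check, and the low purity WTC11 differentiation carries passage 69 in both experiments. TNNT2 measured 211 and 46.3 TPM in the high and low purity H9 library, 397 and 255 TPM in IMR90-4, and 333 and 123 TPM in WTC11. The high purity library was the higher in each line. Across the 3 lines edgeR called 0 of 24810 genes (0%), with 2916 at an unadjusted p under 0.05, and DESeq2 called 204. Simulated data were made only for a smaller fit to the 6 libraries of day 6 or 7, with the line as a block. Changes were put only into genes above a minimum read level. That smaller fit recovered 56% of genes changed 4-fold and 0% of genes changed 2-fold. The fit above, which also used the other days, was not simulated.

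The genes called in the day 6 wells were then read in each line. In H9, 80.8% of 2235 day 6 calls with a nonzero difference had the same sign, against 62.8% of all 19730 such genes. In IMR90-4 the shares were 46.5% of 2228 calls and 48.1% of 19753 genes. In the RNA-only WTC11 pair they were 50.6% of 2237 calls and 48.2% of 19841 genes; the labels do not say whether its passage 69 differentiation is the one sampled in the day 6 wells. These shares describe single pairs of libraries and were given no test, because genes are not replicates. Each multi-omic well of days 0 to 6 correlated best with an RNA-only WTC11 library of its own day. On days 2 and 4 that library was of the other class for every well. On day 0 it was so for all but high purity well 3, and on day 6 for high purity wells 2 and 3 and low purity well 1. The reason was not tested. LUM measured 4 TPM in the high and 322 TPM in the low purity H9 library, and WT1 measured 0.193 and 39.5 TPM. In IMR90-4 LUM measured 4.32 and 14.8 TPM and WT1 0.159 and 0.205 TPM. The RNA-only WTC11 pair gave 2.51 and 13.2 TPM for LUM and 0.183 and 0.542 TPM for WT1, so lumican was the lower in the high purity library of every line and WT1 was near 0 outside the low purity H9 library.

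Cardiac genes were then set side by side. MYH6 measured 171 TPM in the high and 0.0305 TPM in the low purity H9 library, and NKX2-5 measured 61.2 and 1.09 TPM. The median sarcomere difference was 2.22 in H9, -0.2 in IMR90-4 and 0.91 in WTC11, beside 0.24 in the day 6 wells. NKX2-5 was the higher in the high purity library of each line, by 4.89, 0.69 and 1.74. TTR went both ways: 3.67 in H9 but -1.72 in IMR90-4 and -2.07 in WTC11. CD34 was at or under 2.92 TPM in all 6 libraries, and the median of the endothelial list was 0.54 in H9, -0.28 in IMR90-4 and -0.08 in WTC11. The HOX median was -2.18 in H9 against 0.09 and 0.01 in the other lines.

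**Figure D5:**
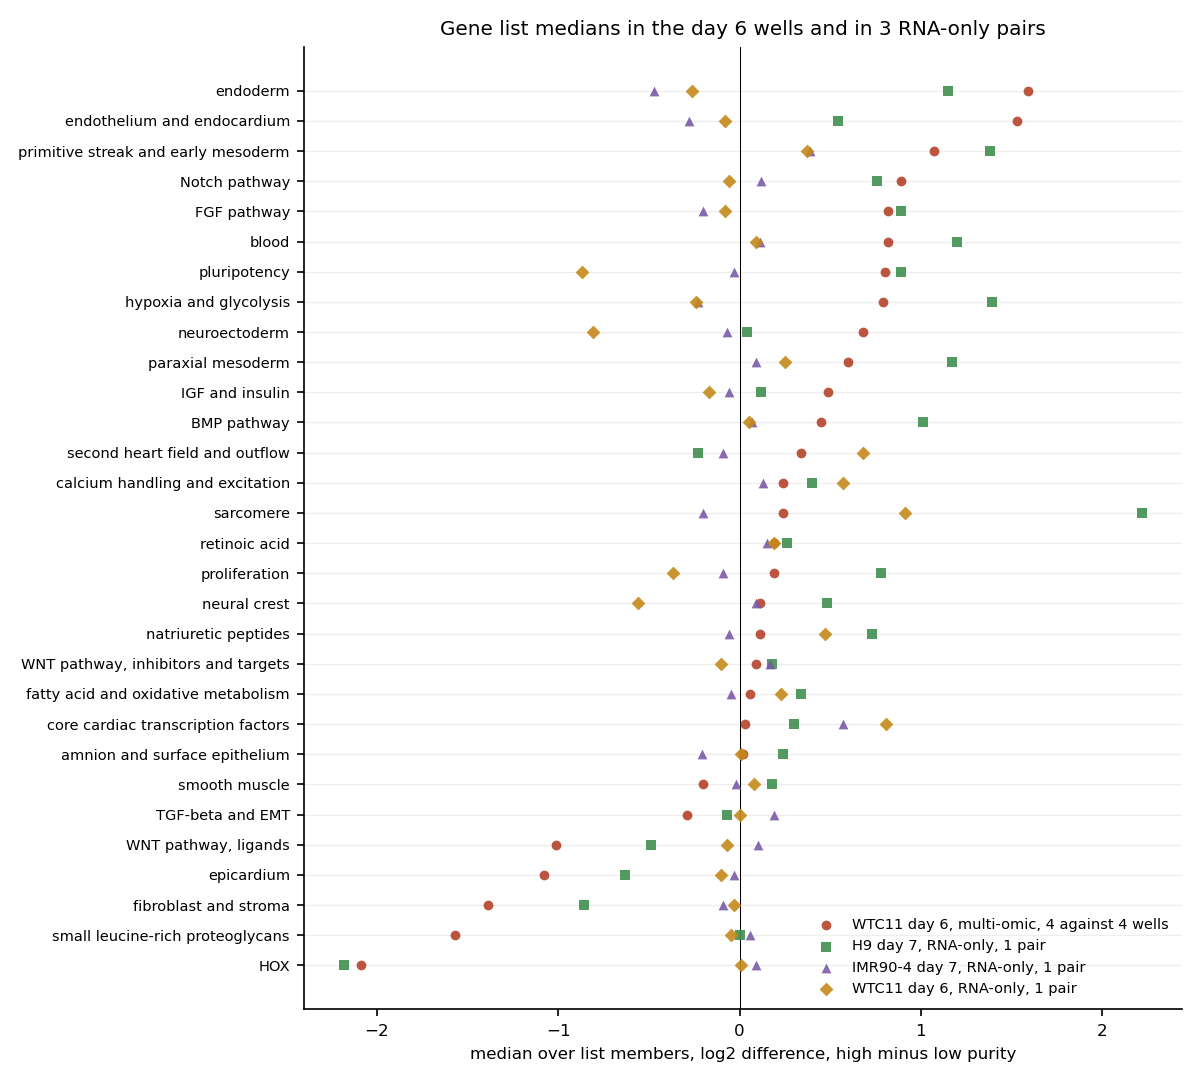
Each row is a gene list and each marker the median log2 difference of its members, high minus low purity (x axis), in the multi-omic day 6 wells and in the 3 RNA-only pairs, which have 1 library per class. H9 and the day 6 wells are both far left for HOX (-2.18 and -2.09), while IMR90-4 and the RNA-only WTC11 pair stay near 0 there.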

How the data were processed

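Poly(A) RNA of the multi-omic WTC11 time course and total RNA of the RNA-only lines were sequenced, per the labels' protocols. STAR 2.5.3a, featureCounts 2.0.3 and hg38 are named in the submitters' processing notes; the strand setting of the counting is not given in the sources used here. The authors deposited a count table and a TPM table for each experiment. The day 6 comparison used the deposited TPM values, because the column names of the multi-omic counts are misplaced: reads and TPM matched under the same name for 0 of 56 libraries. The deposited counts of the RNA-only libraries were tested with edgeR, and gene lengths solved from that experiment's count and TPM tables turned the multi-omic TPM back into reads; 100% of the values under 200 reads came out whole within 0.02 reads.

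Genes with at least 1 TPM in 3 of the 8 wells were kept. TPM were scaled by TMM factors, transformed as log2(TPM + 1) and compared with limma 3.58.1 (trend, 6 residual degrees of freedom). A call required a log2 fold change of 1 or more in size and an adjusted p (Benjamini-Hochberg) under 0.05. Differences between days were interaction terms in 1 fit over 56 wells and 16 group means (40 residual degrees of freedom). The RNA-only test used edgeR 4.0.16 quasi-likelihood over line and stage means, with DESeq2 1.42.0 as an alternative; R was 4.3.3 and Python 3.11.15. Every adjusted p covers all genes tested in its comparison.

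The 30 gene lists and the choice of these wells were made with earlier results of these data known. Named genes are the 12 with the largest and the 12 with the smallest fold change among calls that passed the naming filters. These required at least 5 TPM in the higher class and no overlap of the day 6 wells. They left out symbols with a numbered copy suffix and those of microRNAs, transfer RNAs, other small RNAs and LINC genes. Under the same filters the 8 largest and 8 smallest called interactions were named. Up to 8 called and the first 6 members of each list, and TNNT2, were named without these filters. Exceptions are said to be so where they occur, and a few list members are not reported here. On simulated data, where only genes above a minimum read level were changed, the day 6 comparison called 96.5% of genes changed 4-fold and 24% of genes changed 2-fold. A 2-fold change lies at the fold threshold itself, and 69.5% of the genes changed 2-fold had an adjusted p under 0.05 (limma). Genes with fewer reads were not covered. The alternatives were other scalings, pseudocounts, filters, count models on recovered reads, a replicate block and leaving out each well; the closing section gives their effect. Promoter sequences are from RefSeq (GRCh38.p14).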

Additional observations from a re-analysis of the deposited data

Results flagged for a closer look

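Of 238 groups of 4 wells examined for the 119 genes with values by well, 17 had a well far from the other 3 by Dixon's criterion (0.829 for 4 values), where chance gives about 1 in 20. Low purity well 4 accounted for 12 of them. It was the highest low purity well for LUM (859 TPM), BNC2-AS1 (64.1 TPM), COL3A1 (1650 TPM), CXCL14 (80.3 TPM), LOC105376241 (38.1 TPM), KDR (296 TPM), FGFR2 (318 TPM), SLC2A1 (249 TPM) and NDRG1 (33.5 TPM). It was the lowest for XIRP1 (36.5 TPM), MYH7 (16.5 TPM) and NKX2-5 (7.71 TPM). The stromal genes LUM and COL3A1 were thus highest and the contractile genes XIRP1 and MYH7 lowest in the same well, within 1 class.

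High purity well 4 stood apart for BNC2-AS1 (0.596 TPM, highest, from 1 read), HAND1 (97.8 TPM, highest) and KDR (205 TPM, lowest). The other high purity wells held no read of BNC2-AS1. High purity well 2 was the highest for DCN (0.214 TPM, from 6 reads), and high purity well 1 the lowest for PECAM1 (2.97 TPM).

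The difference between the classes changed between day 4 and day 6 in 1758 genes and between day 6 and day 8 in 964, each by an interaction term (limma, adjusted p under 0.05 and at least 1 on the log2 scale). The naming filters left out genes with overlapping day 6 wells, such as TNNT2 (5.08). Among the genes kept, the largest upward changes from day 4 were those of TTR (6.27), MYH6 (5.55), SMYD1 (5.53), XIRP1 (5.38), UNC45B (4.70), BRINP2 (4.51), ATOH1 (4.10) and F2RL2 (3.99). The largest downward changes were those of RSPO1 (-6.01), SHISA3 (-5.33), SLN (-5.15), PAPPA (-5.04), ALOX15 (-4.65), CXCL14 (-4.28), LOC105376241 (-3.96) and AQP1 (-3.86). SMYD1, XIRP1, UNC45B and MYH6 belong to muscle. The days come from the same 2 differentiations, so these changes describe that pair.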

How the results depend on the processing

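The 2284 calls numbered 918 (364 higher, 554 lower) with a pseudocount of 5, 1363 (560 and 803) with at least 5 TPM in 4 wells, and 7643 (3822 and 3821) with no fold threshold. Leaving out each well in turn gave 2031 to 2396 calls (785 to 1004 higher, 1246 to 1409 lower), the fewest without low purity well 4, where 84% of the calls were kept. Other scalings gave 2290 and 2291 calls, a pseudocount of 0.1 gave 2912, and edgeR and DESeq2 on recovered reads gave 2992 and 2933. No call changed direction in a fit that held it; 938 of the 2284 were not in the fit with at least 5 TPM in 4 wells, and 3 not in those with edgeR and DESeq2. With a pseudocount of 5, HEY2 (0.96), PECAM1 (0.82), AXIN2 (-0.88) and HES4 (0.97) were under the fold threshold, and COL1A1, not called, passed it under 8 alternatives. Among the lists, a pseudocount of 5 left 9 called members for endothelium, 7 for HOX, 4 for proteoglycans and 3 each for Notch, WNT ligands and WNT inhibitors and targets; at least 5 TPM in 4 wells left 11 for endothelium and 6 for HOX. Both settings left 2 for paraxial mesoderm and 1 for fatty acid metabolism. In the neural crest list edgeR and DESeq2 each called 2, where limma called 1, and in the proliferation list 2 were called without high purity well 4. The day 6 minus day 4 interaction gave 1620 to 1846 calls and the day 8 minus day 6 interaction 921 to 1034 when wells were left out. Without TMM scaling these interactions gave 1825 and 1270 calls, and with a pseudocount of 0.1 they gave 2058 and 1125. With only the wells of the 2 days they gave 1698 and 821. In the RNA-only libraries DESeq2 called 204 genes where edgeR called 0. The difference in mean reads per well was 3120702 to 4503686 when wells were left out.

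The well numbers are shared by both classes, but the correlations of same-numbered wells' deviations were 0.00511, -0.0101, -0.0197 and -0.0139, so the numbers do not pair the wells, and no well correlated best with its own number. With the number as a replicate block 2251 genes were called (908 higher, 1343 lower), and the interactions gave 1755 and 979. The limits are 1 differentiation per class, shallower low purity wells and 257 calls resting on at most 10 reads in every well.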

Other observations

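The share of called genes in the day 6 wells is given here by gene type, with no test between types. Of 488 tested miRNA genes 85 were called (17.4%), 19 higher and 66 lower in high purity wells. Of 3070 tested long non-coding RNAs 18.2% were called, of 366 snoRNA genes 10.4%, and of 13369 protein-coding genes 9.55%. The libraries were made from poly(A) RNA, so a miRNA gene here stands for a transcript over its locus and not for the mature miRNA.

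A few list members not described above also separated the classes. PRRX2, a homeobox factor of mesenchyme, was higher (log2 fold change 2.10), and so were UNCX (1.62) and EVX1 (1.20), factors of paraxial mesoderm and primitive streak. TGFBI, an extracellular protein induced by TGF-beta, was lower (-1.68), as was NODAL (-1.11), a ligand of the early embryo. In the H9 pair 32.8% of the day 6 calls with a nonzero difference moved by at least 1 on the log2 scale in the same direction, against 9.77% of all tested genes, and 2.28% moved as far in the opposite direction. In IMR90-4 the shares of the calls were 2.83% in the same and 3.64% in the opposite direction, and in the RNA-only WTC11 pair 4.07% and 3.08%.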
